A study of Mus musculus with 34 samples.

Results

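Genes for collagens, for the glycoproteins, proteoglycans and elastic fibers that surround them, for the proteases that cut this matrix, for the inhibitors of those proteases and for markers of hepatic stellate cells were measured in regenerating mouse liver. The 43 genes were taken by symbol from the 78298 genes of the deposited table and fall into 5 classes, with 12 collagens, 13 glycoproteins, proteoglycans and elastic fiber genes, 10 proteases, 3 inhibitors and 5 markers. Bulk RNA sequencing (RNA-seq) of whole liver was done in male C57/Bl6 mice of 8 to 12 weeks, with 34 libraries in 6 groups. SIRT1intKO mice carried a Villin-Cre transgene, which is active in the intestinal epithelium, with floxed Sirt1 alleles. WT mice were floxed littermates without Cre, so both genotypes carried the loxP-flanked alleles. Livers were taken from untreated mice (0 h) and at 6 and 24 h after partial hepatectomy (PHx) with removal of 70% of the liver. The labels give 6, 6 and 4 WT livers and 6, 5 and 7 SIRT1intKO livers at 0, 6 and 24 h, each a separate biological replicate, and the WT group sizes after PHx differ from those in the study's legends. Because the gene was deleted in the gut, Sirt1 RNA in the liver is no check of the labels, and no sham-operated group was analysed here, so surgery and loss of liver mass cannot be told apart. The library names run in different number series at 0 h and after PHx, and the labels do not say what these series mark. Any difference between the series cannot be told apart from the change from 0 h.

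Hepatic stellate cells lie between sinusoidal endothelium and hepatocytes, store vitamin A at rest and are known as the main source of collagen when a liver is injured. Fibrillar collagens give the matrix its tensile strength, whereas type IV collagen and laminins form basement membranes, and versican, tenascin-C and thrombospondin-1 belong to the provisional matrix laid down early in wounds. Matrix metalloproteinases and ADAMTS proteases cut these proteins, and tissue inhibitors of metalloproteinases (TIMPs) restrain them. In whole liver, fewer cells of a type and less RNA per cell cannot be told apart.

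Counts per library ranged from 14892122 to 23480492, and values are given as CPM, the counts scaled to a common library size with TMM factors. A gene was called when edgeR's quasi-likelihood test gave a Benjamini-Hochberg adjusted p under 0.05 over all 14980 genes tested and the absolute log2 fold change was over 1. Of the 43 genes, 42 were tested. Mmp13, which encodes a collagenase, had 0 to 9 counts per library and did not pass the filter on low counts. In 2 of the 42, Col3a1 and Pdgfra, another annotated gene overlaps on the same strand, so their counts carry that uncertainty.

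Several libraries stood apart from the rest of their group. At 24 h, WT replicates 1 and 2 had summed levels of 12 monocyte and macrophage markers of 856 and 939 CPM, against 86 and 61.4 CPM in replicates 3 and 4. Single markers did not all follow this sum. In WT replicates 1 to 4, Itgam had 11.7, 11.8, 1.83 and 1.14 CPM and Cd68 8.55, 36.7, 6.28 and 3.58 CPM. Lyz2 had 30.9, 8.34, 27 and 26.3 CPM there, and Adgre1 1.78, 0.857, 3.4 and 2.64 CPM. The sum is therefore no measure of the number of these cells. The 11 neutrophil markers summed to 117, 96, 14.3 and 8.16 CPM in the same 4 livers. In SIRT1intKO livers at 24 h, replicate 5 was the lowest of 7 for both lists, with 102 CPM for monocytes and macrophages and 22.3 CPM for neutrophils, where the other 6 reached 242 to 957 CPM and 56.4 to 940 CPM. At 0 h, WT replicates 2 and 4 held 16.9 and 15.1 CPM of Myh11, a contractile gene of smooth muscle, against 0.841 to 1.43 CPM in the other 4. Results for members that rest on these livers are therefore also given without them, in fits chosen after the values were seen. For genes of other lists no such fit is given.

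The bases before the transcription start are printed for 5 genes chosen after their values were seen, to show both courses, Timp1, Vcan and Adamts1, which rose in both genotypes, and Col1a2 and Col3a1, which were called in SIRT1intKO livers at 24 h. The sequences are RefSeq's, in mouse build GRCm38.p6, 250 bases upstream of the start, written 5′ to 3′ along the gene's strand, whereas the deposited counts were made on GRCm39. Capitals mark matches, on either strand, to the TATA box TATAAA, the GC box GGGCGG, the CCAAT box CCAAT or the AP-1 motif TGANTCA, a palindrome. Timp1 lies on chrX:20869916-20870165 (plus strand), Vcan on chr13:89742513-89742762 (minus), Adamts1 on chr16:85803114-85803363 (minus), Col1a2 on chr6:4505368-4505617 (plus) and Col3a1 on chr1:45311288-45311537 (plus).
Timp1: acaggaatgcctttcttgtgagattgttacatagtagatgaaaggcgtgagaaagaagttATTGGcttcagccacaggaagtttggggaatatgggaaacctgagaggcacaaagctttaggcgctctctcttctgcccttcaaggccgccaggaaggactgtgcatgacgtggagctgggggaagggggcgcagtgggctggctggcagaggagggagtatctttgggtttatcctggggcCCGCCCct
Vcan: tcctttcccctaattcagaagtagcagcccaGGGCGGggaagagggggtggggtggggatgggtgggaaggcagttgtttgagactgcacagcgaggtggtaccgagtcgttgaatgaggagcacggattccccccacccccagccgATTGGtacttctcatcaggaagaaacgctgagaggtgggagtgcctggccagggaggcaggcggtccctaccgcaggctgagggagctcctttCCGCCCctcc
Adamts1: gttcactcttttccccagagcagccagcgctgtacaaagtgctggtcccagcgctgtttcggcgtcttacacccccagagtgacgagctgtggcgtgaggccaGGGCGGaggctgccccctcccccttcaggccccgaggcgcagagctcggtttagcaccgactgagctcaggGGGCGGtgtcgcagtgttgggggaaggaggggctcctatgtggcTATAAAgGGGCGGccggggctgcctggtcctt
Col1a2: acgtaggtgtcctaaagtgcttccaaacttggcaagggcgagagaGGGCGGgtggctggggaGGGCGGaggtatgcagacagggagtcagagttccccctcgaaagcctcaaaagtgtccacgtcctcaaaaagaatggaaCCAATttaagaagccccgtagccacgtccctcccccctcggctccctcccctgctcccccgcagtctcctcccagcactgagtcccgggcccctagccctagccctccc
Col3a1: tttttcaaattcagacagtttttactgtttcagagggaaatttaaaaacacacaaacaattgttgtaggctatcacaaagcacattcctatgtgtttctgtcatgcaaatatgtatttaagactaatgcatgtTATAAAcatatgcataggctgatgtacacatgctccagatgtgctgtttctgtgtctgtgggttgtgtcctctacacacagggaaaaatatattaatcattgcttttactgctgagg
Among the 29 of 43 genes found in the promoter table, a GC box was found in 18, where 32.7% of all 32851 promoters held one. A member counted if any of its promoters matched, whereas the background is a share of single promoters, so the units differ. A CCAAT box was found in 10, against 33.8% of all promoters, and a TATA box in 5 (Adamts1, Col3a1, Mmp13, Postn and Tnc), against 12.4%. The AP-1 motif was found in Col6a1, Mmp12 and Mmp13, against 6.75% of all promoters. Of the printed promoters, Adamts1 held 3 GC boxes and a TATA box, Vcan and Col1a2 held 2 GC boxes and 1 CCAAT box each, Timp1 held 1 of each, and Col3a1 held a TATA box and no GC or CCAAT match in this window. These matches describe the letters alone.

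After PHx, between 10 and 22 of the 42 members were called higher than at 0 h in each of the 4 comparisons, and none was called lower. At 6 h, 12 of 42 members were called higher in WT livers, where 7.17% of all genes tested were, and 10 of 42 in SIRT1intKO livers, where 7.86% were. At 24 h the counts were 11 of 42 in WT livers, against 8.32% of all genes, and 22 of 42 in SIRT1intKO livers, against 11.9%. For genes called lower, none of the 42 members stands beside 8.4% (WT) and 8.7% (SIRT1intKO) of all genes at 6 h and 7.4% and 11.1% at 24 h. The median log2 fold change over the 42 members was 0.41 and 0.30 at 6 h and 0.33 and 1.13 at 24 h, in WT and SIRT1intKO livers in turn, where the median over all genes lay between 0.01 and 0.04. The WT median at 24 h depended on which livers entered the fit, and was 0.97 without WT replicates 2 and 4 at 0 h, 0.53 without WT replicates 1 and 2 at 24 h and -0.18 without replicates 3 and 4. The WT median at 6 h was 1.01 without WT replicates 2 and 4 at 0 h. The 2 comparisons of a genotype share its 0 h livers.

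**Figure D1:**
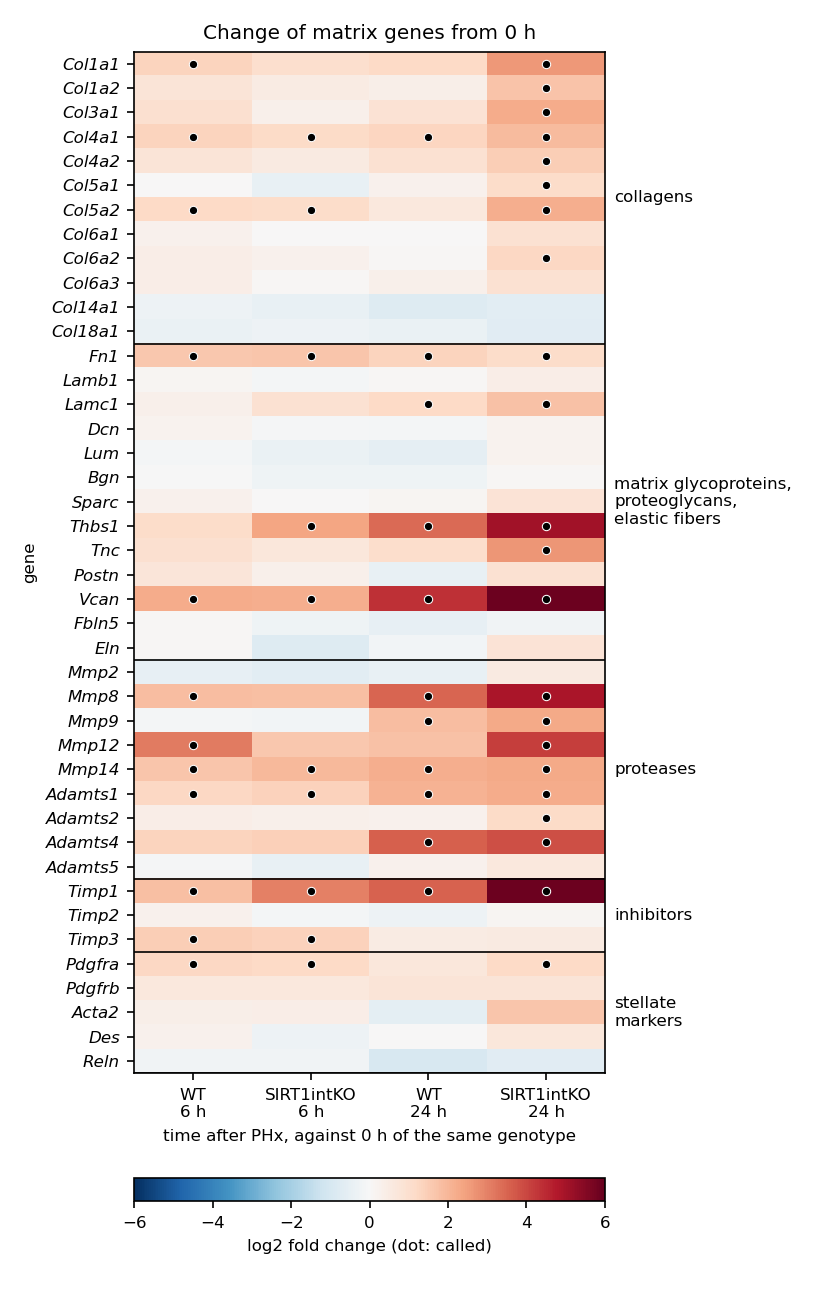
Log2 fold change from 0 h of the same genotype (color) for the 42 tested genes (rows, by class) at 6 and 24 h after PHx in WT and SIRT1intKO livers, with a black dot where a gene was called. The dots number 12 and 10 at 6 h and 11 and 22 at 24 h, and the fibrillar collagens carry dots mainly in the last column.

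At 6 h, 9 members were called in both genotypes, the collagens Col4a1 and Col5a2, the glycoproteins Fn1 and Vcan, the proteases Mmp14 and Adamts1, the inhibitors Timp1 and Timp3, and the receptor Pdgfra. Col1a1, Mmp8 and Mmp12 passed in WT livers alone and Thbs1 in SIRT1intKO livers alone, without a called difference between the genotypes, and Thbs1 passed in both when WT replicates 2 and 4 at 0 h were left out. At 24 h, 11 members were called in both genotypes, and the other 11 of the 22 passed in SIRT1intKO livers alone. These last were 7 collagens (Col1a1, Col1a2, Col3a1, Col4a2, Col5a1, Col5a2 and Col6a2), Tnc, Mmp12, Adamts2 and Pdgfra. Without WT replicates 2 and 4 at 0 h, Col1a1, Col3a1, Col4a2, Col5a2 and Tnc were among the members called in WT livers at 24 h as well. A further 19 members were called in none of the 4 comparisons, among them the small proteoglycans Dcn, Lum and Bgn, Mmp2, Timp2 and 4 of the 5 stellate cell markers. Of all 14980 genes tested, 1246 were called higher in WT livers at 24 h and 1784 in SIRT1intKO livers, so more calls there were not particular to the members. How many of all genes were called in both genotypes, in either alone or in none was not counted. The split of the members therefore has no background to stand beside.

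Of 12 collagens, 3 and 2 were called higher at 6 h in WT and SIRT1intKO livers, and 1 and 8 at 24 h. The shares of all genes were 7.17% and 7.86% at 6 h and 8.32% and 11.9% at 24 h, so the WT count at 24 h lies near that of all genes. The WT counts depended on replicates 2 and 4 at 0 h, without which 5 collagens were called in WT livers at 6 h (Col1a1, Col1a2, Col3a1, Col4a1 and Col5a2) and 5 at 24 h (Col1a1, Col3a1, Col4a1, Col4a2 and Col5a2). Their median log2 fold changes were 0.58 and 0.28 at 6 h and 0.33 and 1.34 at 24 h. Col4a1, a chain of the type IV collagen of basement membranes, showed in WT livers lowest, median and highest values of 16.9, 24.8 and 30.5 CPM at 0 h and 52.1, 65.2 and 72.3 CPM at 6 h, and 72, 71.9, 53.2 and 40.3 CPM in replicates 1 to 4 at 24 h. The SIRT1intKO livers held 19.9, 25 and 29.6 CPM at 0 h (lowest, median and highest), 47.5, 55.6, 48, 74.5 and 55.9 CPM in the 5 livers at 6 h, and 47.4, 96 and 148 CPM at 24 h. Every liver after PHx lay above every 0 h liver of its genotype at both times, and the genotypes overlapped at 24 h. Log2 fold changes of Col4a1 were 1.35 (SE 0.215, adjusted p = 1.13e-05) and 1.16 (SE 0.222, adjusted p = 0.000131) at 6 h, and 1.27 (SE 0.233, adjusted p = 0.000138) and 1.89 (SE 0.213, adjusted p = 4.47e-08) at 24 h, in WT and SIRT1intKO livers. Col4a2, the partner chain whose start lies 21 bases from that of Col4a1 on the opposite strand of chromosome 8, had log2 fold changes of 0.75 and 0.53 at 6 h and 0.93 and 1.47 at 24 h, and was called in the last alone, although without WT replicates 2 and 4 at 0 h it was also called in WT livers at 24 h (1.03).

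Col1a1, which encodes the main chain of type I collagen, had in WT livers lowest, median and highest values of 2.84, 4.8 and 17.8 CPM at 0 h and 10.8, 14.6 and 43.6 CPM at 6 h, and 5.04, 9.2, 38.1 and 18.7 CPM in replicates 1 to 4 at 24 h. In SIRT1intKO livers its values were 4.78, 5.73 and 6.58 CPM at 0 h (lowest, median and highest), 21.3, 6.76, 9.12, 6.98 and 12 CPM in the 5 livers at 6 h, and 15, 19 and 79.5 CPM at 24 h. In WT livers at 24 h replicates 3 and 4 lay above the 0 h range and replicates 1 and 2 within it, whereas all 5 SIRT1intKO livers at 6 h and all 7 at 24 h lay above all 6 at 0 h. The log2 fold change of Col1a1 was 1.32 (SE 0.497, adjusted p = 0.0351) at 6 h and 1.18 (SE 0.539, adjusted p = 0.087) at 24 h in WT livers, and 1.00 (SE 0.526, adjusted p = 0.133) and 2.61 (SE 0.508, adjusted p = 0.000102) in SIRT1intKO livers. In WT livers at 0 h the highest values were those of replicates 2 and 4, and without them Col1a1 was also called at 24 h in WT livers, with a log2 fold change of 2.19. The WT call at 6 h was lost without any 1 of WT replicates 1, 3, 5 and 6 at 0 h or 4 and 5 at 6 h, with log2 fold changes from 0.90 to 1.75. Col1a2 and Col3a1, the second chain of type I collagen and the chain of type III collagen, reached 1.73 (SE 0.388, adjusted p = 0.000488) and 2.22 (SE 0.463, adjusted p = 0.000222) in SIRT1intKO livers at 24 h, and 0.35 and 0.85 in WT livers, where neither was called. Without WT replicates 2 and 4 at 0 h, Col3a1 was called in WT livers at 24 h with 1.71 (adjusted p = 0.0139). The type V chains Col5a1 and Col5a2, which set fibril diameter, had 1.11 and 2.19 in SIRT1intKO livers at 24 h against 0.26 and 0.64 in WT livers, where Col5a2 was called without the same 2 livers (1.47, adjusted p = 0.016). At 6 h Col5a2 had 1.21 and 1.10, a call lost in WT livers without replicate 4 at 6 h (0.90 to 1.54 over the fits that leave out 1 library) and in SIRT1intKO livers in 9 of 34 such fits (0.60 to 1.28). Without SIRT1intKO replicate 7 at 24 h, Col5a1 was not called (0.81). Type VI collagen forms beaded filaments around cells, and of its chains Col6a1, Col6a2 and Col6a3, with 0.91, 1.22 and 0.91 in SIRT1intKO livers at 24 h, Col6a2 was called, a call lost without replicate 6 or 7 (0.98 to 1.37 over the fits that leave out 1 library). Col14a1, a fibril-associated collagen, and Col18a1, the source of endostatin, were the 2 collagens with negative log2 fold changes in all 4 comparisons, from -0.78 to -0.30 and from -0.70 to -0.29. Neither reached the fold threshold, although the adjusted p was 0.0193 and 0.0175 for Col14a1 at 24 h and 0.000632 for Col18a1 in SIRT1intKO livers.

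The 13 glycoproteins, proteoglycans and elastic fiber genes divided into a few with very large rises and many near their 0 h level. Calls numbered 2 and 3 at 6 h and 4 and 5 at 24 h in WT and SIRT1intKO livers, with medians of 0.26, 0.02, 0.07 and 0.84. Beside them, 7.17%, 7.86%, 8.32% and 11.9% of all genes were called higher. Vcan, which encodes the large proteoglycan versican, had in WT livers lowest, median and highest values of 0, 0.114 and 0.358 CPM at 0 h and 0.311, 0.734 and 1.41 CPM at 6 h, and 7.26, 4.63, 1.31 and 0.448 CPM in replicates 1 to 4 at 24 h. In SIRT1intKO livers Vcan had 0, 0.0991 and 0.248 CPM at 0 h (lowest, median and highest), 0.513, 0.282, 0.252, 0.546 and 1.2 CPM in the 5 livers at 6 h, and 1.55, 5.99 and 12.7 CPM at 24 h. All livers at 24 h lay above those at 0 h in both genotypes, WT replicates 3 and 4 and SIRT1intKO replicate 5 were the low ones, and at 6 h the WT groups overlapped in 1 liver. Log2 fold changes of Vcan were 2.24 (SE 0.699, adjusted p = 0.012) and 2.20 (SE 0.786, adjusted p = 0.0265) at 6 h and 4.39 (SE 0.689, adjusted p = 2.13e-05) and 5.89 (SE 0.688, adjusted p = 7.76e-08) at 24 h. The SIRT1intKO call at 6 h was lost without any 1 of replicates 2, 3 and 5 at 0 h or replicate 5 at 6 h, with 1.68 to 2.55.

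Thbs1 encodes thrombospondin-1, an adhesive glycoprotein that can release TGF-β from its latent form. WT livers had for Thbs1 lowest, median and highest values of 0.3, 1.35 and 5.44 CPM at 0 h and 2.48, 3.97 and 5.28 CPM at 6 h, and 31.2, 38.8, 4.87 and 2.24 CPM in replicates 1 to 4 at 24 h. SIRT1intKO livers had for Thbs1 0.459, 0.569 and 1.37 CPM at 0 h (lowest, median and highest), 2.05, 7.47, 2.83, 4.01 and 4.01 CPM in the 5 livers at 6 h, and 8.82, 27.3 and 41.6 CPM at 24 h. Values in WT livers at 24 h spanned 2 ranges, replicates 1 and 2 far above every 0 h liver and replicates 3 and 4 within the 0 h range, while the SIRT1intKO groups did not overlap with 0 h at either time. The log2 fold change of Thbs1 was 1.12 (SE 0.563, adjusted p = 0.118) and 2.39 (SE 0.641, adjusted p = 0.00381) at 6 h and 3.42 (SE 0.599, adjusted p = 7.95e-05) and 5.06 (SE 0.629, adjusted p = 1.98e-07) at 24 h. Without WT replicates 1 and 2 at 24 h, Thbs1 was not called in WT livers at that time, and without WT replicates 2 and 4 at 0 h it was called in WT livers at 6 h too (2.21, adjusted p = 0.00929).

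Fn1, which encodes fibronectin and is made in quantity by hepatocytes, rose in all 4 comparisons, with log2 fold changes of 1.61 and 1.65 at 6 h and 1.33 and 1.12 at 24 h. Lamc1, the laminin γ1 chain, was called at 24 h in both genotypes (1.20 and 1.74), and the partner chain Lamb1 in neither (0.07 and 0.41). Without WT replicate 1 at 24 h, Lamc1 was not called in WT livers (0.87). Tnc, which encodes tenascin-C, was called in SIRT1intKO livers at 24 h with 2.63 (SE 0.55, adjusted p = 0.000234) and had 1.04 (SE 0.585, adjusted p = 0.171) in WT livers. Without WT replicates 2 and 4 at 0 h, Tnc was also called in WT livers, with 1.84 at 6 h and 1.93 at 24 h. The collagen-binding proteoglycans Dcn, Lum and Bgn, the matricellular Sparc and Postn, and the elastic fiber genes Fbln5 and Eln had log2 fold changes from -0.77 (Eln, SIRT1intKO at 6 h) to 0.93 (Postn, SIRT1intKO at 24 h), and none of these 7 was called against 0 h.

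The class of proteases had medians of 1.23 and 1.39 at 6 h and of 1.86 and 2.25 at 24 h, the highest of the 5 classes at 24 h. Of 9 tested, 4 and 2 were called at 6 h, where 7.17% and 7.86% of all genes were called higher. At 24 h 5 and 7 were, where 8.32% and 11.9% of all genes were. Mmp14, the membrane-bound metalloproteinase that activates Mmp2, had in WT livers lowest, median and highest values of 13.2, 17.9 and 21.1 CPM at 0 h and 33.5, 55.5 and 74.8 CPM at 6 h, and 112, 121, 38.5 and 37.8 CPM in replicates 1 to 4 at 24 h. In SIRT1intKO livers Mmp14 had 12.6, 15.7 and 17.3 CPM at 0 h (lowest, median and highest), 65.3, 64.2, 52.8, 47.5 and 65.2 CPM in the 5 livers at 6 h, and 45.4, 71.7 and 93.1 CPM at 24 h. No liver at 6 or 24 h overlapped with its 0 h group, and the SIRT1intKO livers at 24 h all lay within the WT range. Log2 fold changes of Mmp14 were 1.65 (SE 0.242, adjusted p = 3.28e-06) and 1.95 (SE 0.252, adjusted p = 6.51e-07) at 6 h and 2.16 (SE 0.262, adjusted p = 6.49e-07) and 2.26 (SE 0.242, adjusted p = 1.91e-08) at 24 h.

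Adamts4 encodes an aggrecanase that also cuts versican. WT livers held for Adamts4 lowest, median and highest values of 0.0601, 0.231 and 0.409 CPM at 0 h and 0.156, 0.62 and 0.997 CPM at 6 h, and 4.73, 5.88, 0.785 and 0.448 CPM in replicates 1 to 4 at 24 h. SIRT1intKO livers held for Adamts4 0.0592, 0.164 and 0.526 CPM at 0 h (lowest, median and highest), 0.449, 0.704, 0.755, 0.85 and 0.18 CPM in the 5 livers at 6 h, and 1.22, 3.47 and 5.31 CPM at 24 h. All livers of both genotypes at 24 h lay above 0 h, with WT replicates 3 and 4 and SIRT1intKO replicate 5 lowest, and at 6 h most but not all livers did. The log2 fold change of Adamts4 was 1.34 (SE 0.61, adjusted p = 0.0837) and 1.41 (SE 0.655, adjusted p = 0.0885) at 6 h, not called, and 3.57 (SE 0.61, adjusted p = 6.04e-05) and 3.85 (SE 0.586, adjusted p = 4.09e-06) at 24 h. Adamts1, which also cuts versican, was called in all 4 comparisons with 1.23, 1.39, 2.08 and 2.21, the first of which was lost without WT replicate 3 at 6 h (1.01 to 1.42 over the fits that leave out 1 library). Adamts2, which removes the N-propeptide of fibrillar procollagens, was called in SIRT1intKO livers at 24 h with 1.13 (SE 0.307, adjusted p = 0.00291) and had 0.24 (SE 0.348, adjusted p = 0.614) in WT livers. The call of Adamts2 was lost without SIRT1intKO replicate 3 at 0 h or 7 at 24 h (0.93 to 1.27).

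Mmp8, the collagenase stored in neutrophil granules, had in WT livers lowest, median and highest values of 0.0601, 0.285 and 0.715 CPM at 0 h and 0.299, 1.41 and 2.19 CPM at 6 h, and 8.36, 6.63, 0.471 and 0.498 CPM in replicates 1 to 4 at 24 h. In SIRT1intKO livers Mmp8 had 0, 0.165 and 0.559 CPM at 0 h (lowest, median and highest), 0.577, 0.986, 1.45, 0.546 and 0.479 CPM in the 5 livers at 6 h, and 1.31, 4.65 and 18.6 CPM at 24 h. Its high values at 24 h were in WT replicates 1 and 2 and in the SIRT1intKO livers, where replicate 5 was lowest, and WT replicates 3 and 4 lay within the 0 h range. The log2 fold change of Mmp8 was 1.86 (SE 0.713, adjusted p = 0.0395) and 1.80 (SE 0.814, adjusted p = 0.0794) at 6 h and 3.49 (SE 0.734, adjusted p = 0.000579) and 4.92 (SE 0.742, adjusted p = 3.56e-06) at 24 h. Mmp9, a gelatinase also stored in neutrophils, had -0.13 and -0.17 at 6 h and was called at 24 h with 1.86 (SE 0.579, adjusted p = 0.0134) and 2.25 (SE 0.527, adjusted p = 0.000764), and without WT replicates 1 and 2 its WT value was -0.81. Leaving out either of them alone ended the WT call of Mmp9 (1.15 to 2.23 over the fits that leave out 1 library), and the WT call of Mmp8 at 6 h was lost in 8 of 34 such fits (1.62 to 2.18). The 11 neutrophil markers summed to 6.85 to 22.4 CPM in WT and 4.21 to 20.9 CPM in SIRT1intKO livers at 0 h, where Mpo and Camp (WT) and Ly6g and Camp (SIRT1intKO) were at 0 in every library. At 6 h they summed to 5.62 to 58.2 CPM (median 13.5) and 8.98 to 16.6 CPM (median 11.3), with none called. At 24 h the sums were 8.16 to 117 CPM and 22.3 to 940 CPM, and their part in the Mmp8 and Mmp9 values was not tested.

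Mmp12, the elastase of macrophages, rested on few reads and had in WT livers lowest, median and highest values of 0.0601, 0.143 and 0.179 CPM at 0 h and 0.51, 1.13 and 2.39 CPM at 6 h, and 0, 0.171, 1.2 and 0.498 CPM in replicates 1 to 4 at 24 h. The SIRT1intKO values of Mmp12 were 0, 0.0923 and 0.262 CPM at 0 h (lowest, median and highest), 0.257, 0.141, 0.377, 0.243 and 0.719 CPM in the 5 livers at 6 h, and 0.723, 1.41 and 6.75 CPM at 24 h. All WT livers at 6 h and all SIRT1intKO livers at 24 h lay above 0 h, while WT livers at 24 h lay on both sides of the 0 h range and SIRT1intKO replicate 6 was the highest liver of its group. Log2 fold changes of Mmp12 were 3.10 (SE 0.662, adjusted p = 0.000439) and 1.64 (SE 0.779, adjusted p = 0.0948) at 6 h and 1.75 (SE 0.742, adjusted p = 0.0659) and 4.17 (SE 0.674, adjusted p = 9.1e-06) at 24 h. Mmp2, the gelatinase of mesenchymal cells, and Adamts5, an aggrecanase, were not called against 0 h, with 0.55 and 0.64 in SIRT1intKO livers at 24 h. The 12 monocyte and macrophage markers summed to 61.4 to 939 CPM in WT and 102 to 957 CPM in SIRT1intKO livers at 24 h, against 81.1 to 131 and 86.4 to 177 CPM at 0 h, with none at 0 in every library of a group, and their part in the Mmp12 values was not tested.

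**Figure D2:**
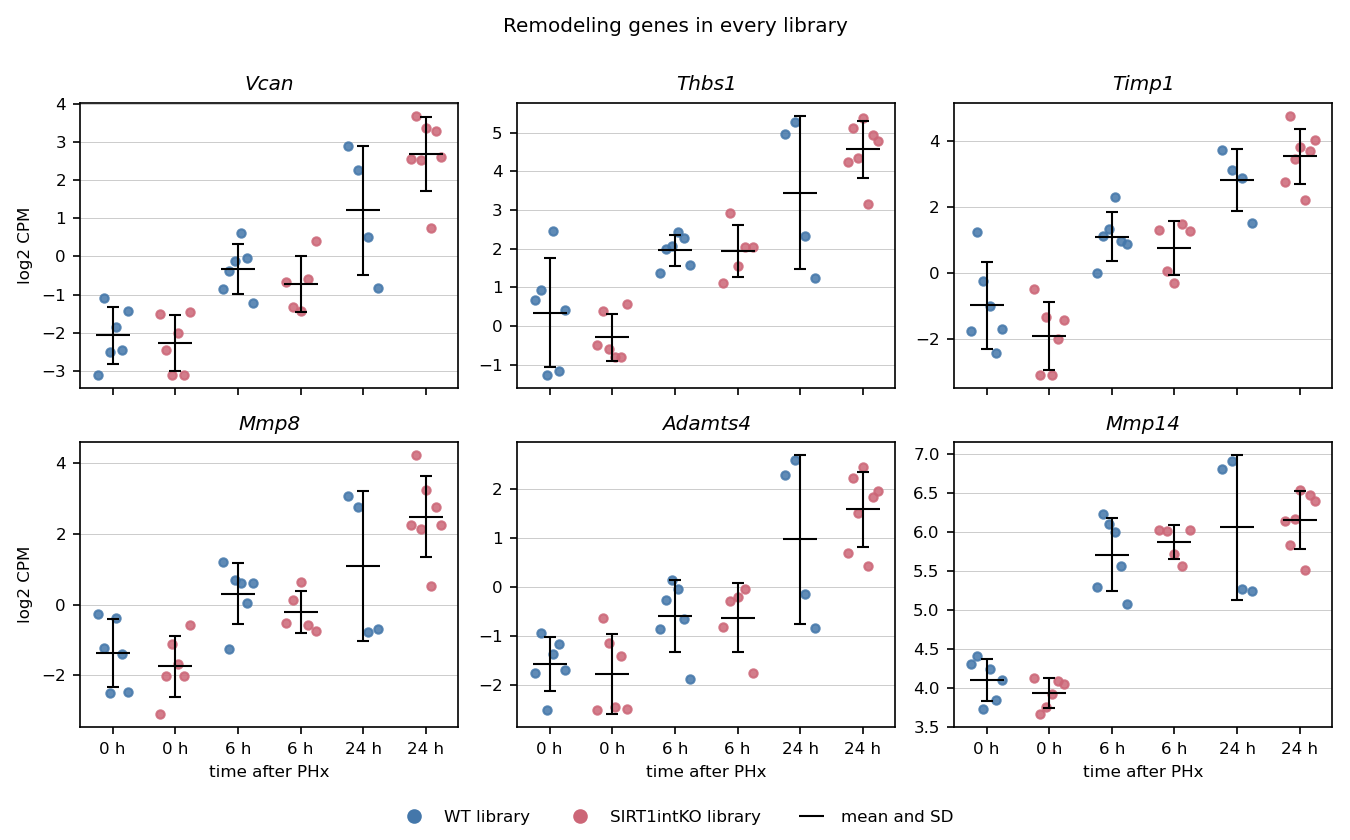
Log2 CPM of 6 matrix remodeling genes in every library by time after PHx (WT blue, SIRT1intKO red), with the mean and SD of each group in black. At 24 h the WT livers fall into a high and a low pair for Thbs1, Vcan and Mmp8, and the SIRT1intKO livers lie mostly with the high pair.

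The 3 inhibitors did not move together. Timp1, the inducible inhibitor of many metalloproteinases, had in WT livers lowest, median and highest values of 0.066, 0.285 and 2.25 CPM at 0 h and 0.875, 1.93 and 4.79 CPM at 6 h, and 13.1, 8.46, 7.07 and 2.69 CPM in replicates 1 to 4 at 24 h. In SIRT1intKO livers Timp1 had 0, 0.19 and 0.592 CPM at 0 h (lowest, median and highest), 2.31, 0.916, 0.692, 2.67 and 2.28 CPM in the 5 livers at 6 h, and 4.5, 12.7 and 26.8 CPM at 24 h. Every SIRT1intKO liver at 6 and 24 h and every WT liver at 24 h lay above its 0 h group, and 2 of 6 WT livers did at 6 h. The log2 fold change of Timp1 was 1.79 (SE 0.591, adjusted p = 0.017) and 3.02 (SE 0.725, adjusted p = 0.00144) at 6 h and 3.56 (SE 0.618, adjusted p = 7.12e-05) and 5.89 (SE 0.684, adjusted p = 7.06e-08) at 24 h. Without WT replicate 4 at 6 h the WT call at 6 h was lost (1.41 to 2.84 over the fits that leave out 1 library). Timp3, which is held in the matrix and also inhibits ADAMTS proteases, was called at 6 h in both genotypes (1.46 and 1.38) and not at 24 h (0.49 and 0.54). Timp2, which takes part in the activation of Mmp2, stayed between -0.29 and 0.24 in the 4 comparisons and was called in none.

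Stellate cell markers were mostly not called. Of the 5, Pdgfra was called at 6 h in both genotypes and at 24 h in SIRT1intKO livers, and the other 4 were not called against 0 h. Pdgfra, a receptor for platelet-derived growth factor, had in WT livers lowest, median and highest values of 2.44, 3.53 and 5.26 CPM at 0 h and 7.22, 8.55 and 11.5 CPM at 6 h, and 5.16, 7.54, 5.86 and 5.77 CPM in replicates 1 to 4 at 24 h. In SIRT1intKO livers Pdgfra had 2.16, 3.43 and 4.04 CPM at 0 h (lowest, median and highest), 7.38, 8.24, 7.61, 8.62 and 6.59 CPM in the 5 livers at 6 h, and 4.82, 8.02 and 11.4 CPM at 24 h. At 6 h no liver of either genotype overlapped with 0 h, and at 24 h 1 WT liver did. Log2 fold changes of Pdgfra were 1.23 (SE 0.199, adjusted p = 1.31e-05) and 1.20 (SE 0.208, adjusted p = 4.03e-05) at 6 h and 0.69 (SE 0.218, adjusted p = 0.0141) and 1.20 (SE 0.194, adjusted p = 1e-05) at 24 h.

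Pdgfrb, the receptor that drives stellate cell proliferation, had in WT livers lowest, median and highest values of 5.21, 7.45 and 9.26 CPM at 0 h and 6.15, 11 and 16.6 CPM at 6 h, and 7.56, 10, 15.4 and 16.3 CPM in replicates 1 to 4 at 24 h. In SIRT1intKO livers Pdgfrb had 5.11, 5.38 and 9 CPM at 0 h (lowest, median and highest), 10.5, 10.7, 10.5, 7.1 and 8.98 CPM in the 5 livers at 6 h, and 4.94, 8.99 and 15.3 CPM at 24 h. Groups overlapped at each time, and log2 fold changes lay between 0.61 and 0.75, under the fold threshold, with adjusted p = 0.0388 (WT) and 0.0138 (SIRT1intKO) at 24 h. Des, which encodes the intermediate filament desmin, had in WT livers lowest, median and highest values of 3.36, 4.71 and 9.42 CPM at 0 h and 3.89, 5.76 and 12.5 CPM at 6 h, and 1.54, 5.43, 7.75 and 7.96 CPM in replicates 1 to 4 at 24 h. In SIRT1intKO livers Des had 4.03, 5.28 and 6.64 CPM at 0 h (lowest, median and highest), 4.36, 4.79, 4.34, 4.49 and 2.99 CPM in the 5 livers at 6 h, and 3.74, 4.84 and 19.6 CPM at 24 h. Des groups overlapped in all 4 comparisons, and its log2 fold changes were 0.28, -0.32, 0.02 and 0.69.

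Acta2, the smooth muscle actin of contractile stellate cells and of vessel walls, spread widely within groups and had in WT livers lowest, median and highest values of 0.24, 1.85 and 34.4 CPM at 0 h and 6.15, 11.6 and 28.7 CPM at 6 h, and 1.05, 9.94, 9.16 and 8.81 CPM in replicates 1 to 4 at 24 h. In SIRT1intKO livers Acta2 had 2.1, 3.71 and 12.2 CPM at 0 h (lowest, median and highest), 10.6, 6.76, 4.65, 6.25 and 5.63 CPM in the 5 livers at 6 h, and 4.88, 7.85 and 38.1 CPM at 24 h. The high WT livers at 0 h were replicates 2 and 4, with 34.4 and 25.8 CPM against 0.24 to 1.91 CPM in the other 4, and the high SIRT1intKO livers at 24 h were replicates 5, 6 and 7, with 23.8, 27.1 and 38.1 CPM. The groups overlapped in every comparison with 0 h. Log2 fold changes of Acta2 were -0.60 (SE 0.824, adjusted p = 0.601) in WT and 1.68 (SE 0.729, adjusted p = 0.055) in SIRT1intKO livers at 24 h, neither called, and without WT replicates 2 and 4 at 0 h the WT value was 2.46, which was called. In that fit Acta2 was also called in WT livers at 6 h (3.43, adjusted p = 0.000602) and in SIRT1intKO livers at 24 h (1.68, adjusted p = 0.0105), and the latter was called without WT replicates 1 and 2 at 24 h too (adjusted p = 0.0476). No SIRT1intKO liver was left out in these fits. The spread is estimated over all libraries, so the lower adjusted p in SIRT1intKO livers comes from the WT livers removed. Genes of smooth muscle and of portal fibroblasts were high in the same livers. Portal fibroblast markers summed to 38.5 and 34.5 CPM in WT replicates 2 and 4 at 0 h, against 7.99 to 12.2 CPM in the others. In SIRT1intKO replicates 5, 6 and 7 at 24 h they summed to 26.1, 43.5 and 40.2 CPM, against 15.2 to 21.3 CPM. Myh11 had 16.9 and 15.1 CPM in WT replicates 2 and 4 at 0 h, and 8.96, 8.69 and 13.3 CPM in SIRT1intKO replicates 5, 6 and 7 at 24 h against 0.759 to 2.39 CPM in the other 4. Cnn1, another contractile gene, had 4.09 and 5.17 CPM in those WT livers and at most 0.192 CPM in the other 4. The part of vessel wall or portal fibroblast RNA in the Acta2 values was not tested.

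Reln, which encodes the secreted glycoprotein reelin and marks stellate cells in mouse liver, lay lower at 24 h and had in WT livers lowest, median and highest values of 20.8, 25.1 and 26.6 CPM at 0 h and 17.1, 20 and 28.2 CPM at 6 h, and 8.79, 8.86, 13.6 and 18 CPM in replicates 1 to 4 at 24 h. In SIRT1intKO livers Reln had 13.6, 21.9 and 30.3 CPM at 0 h (lowest, median and highest), 19.4, 16.4, 17.8, 22.4 and 18.7 CPM in the 5 livers at 6 h, and 11.2, 14.2 and 16.3 CPM at 24 h. All 4 WT livers at 24 h lay below all 6 at 0 h, and the SIRT1intKO groups overlapped. The log2 fold change of Reln at 24 h was -0.97 (SE 0.187, adjusted p = 0.000222) and -0.67 (SE 0.156, adjusted p = 0.000759), both inside the fold threshold and so not called.

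**Figure D3:**
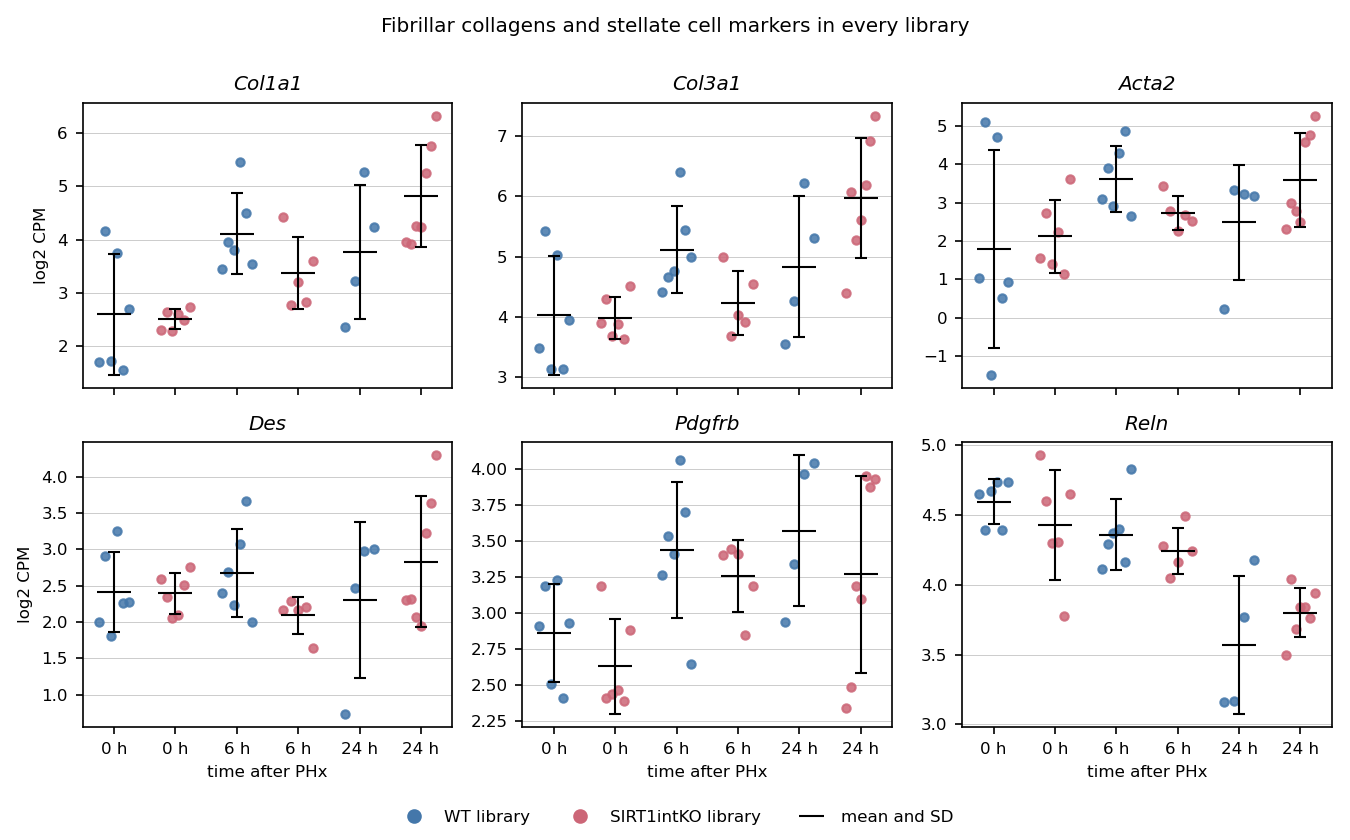
Log2 CPM of Col1a1, Col3a1 and 4 stellate cell markers in every library by time after PHx (WT blue, SIRT1intKO red), with the mean and SD of each group in black. Acta2 spreads widest in the WT livers at 0 h, and the WT livers at 24 h lie below those at 0 h for Reln.

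Livers at 24 h were also compared with livers at 6 h of the same genotype. In WT livers, 5 members were called higher at 24 h than at 6 h, where 4.44% of all genes were, and 1 lower, where 2.72% were. The 5 were Thbs1, Vcan, Mmp9, Adamts4 and Timp1, and the lower one was Postn, which encodes periostin, with -1.17 (SE 0.346, adjusted p = 0.0189). In SIRT1intKO livers, 17 members were called higher, where 6.7% of all genes were, and 0 lower, where 3.91% were. The 17 comprised 5 of 12 collagens, 4 of 13 glycoproteins and elastic fiber genes, 6 of 9 proteases, 1 of 3 inhibitors and 1 of 5 markers. Col3a1 (1.93 (SE 0.489, adjusted p = 0.00397)), Tnc (1.95 (SE 0.562, adjusted p = 0.0104)) and Eln, the elastin gene (1.61 (SE 0.518, adjusted p = 0.0206)), were among them, and in WT livers their values were -0.11, 0.09 and -0.23. Des passed narrowly, with 1.01 (SE 0.385, adjusted p = 0.0479), and its call was lost in 13 of 34 fits that leave out 1 library (0.64 to 1.14). Eln was lost without SIRT1intKO replicate 6 or 7 at 24 h (1.27 to 1.79), and Postn without WT replicate 4 at 6 h or 1 or 4 at 24 h (-1.37 to -0.99). Without WT replicate 1 at 24 h the WT count was 2, and without SIRT1intKO replicate 7 at 24 h the SIRT1intKO count was 10. Median log2 fold changes of collagens from 6 to 24 h were -0.13 in WT and 0.94 in SIRT1intKO livers, and those of proteases 0.50 and 1.16.

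Read liver by liver at 24 h, the class medians of collagens and proteases were high in different WT livers. For each library the log2 CPM was set against the 0 h mean of its genotype. The median over the 12 collagens was -0.44, -0.10, 1.10 and 0.67 in WT replicates 1 to 4, and 0.37, 0.75, 0.65, 0.92, 1.30, 1.89 and 2.14 in SIRT1intKO replicates 1 to 7. Over the 9 proteases it was 2.41, 2.81, 0.54 and 0.67 in the WT livers and 1.99, 2.76, 2.24, 2.61, 1.27, 2.55 and 2.38 in the SIRT1intKO livers. By these medians the 2 WT livers low for collagens were the 2 high for proteases, while the SIRT1intKO livers were above 0 for both classes. The WT mean at 0 h includes replicates 2 and 4, which had 4.16 and 3.75 log2 CPM of Col1a1 against 1.56 to 2.71 in the others. The WT collagen medians depend on that baseline, and medians without these 2 livers were not computed. The median over all genes lay between -0.03 and 0.02 in each of the 11 livers.

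The 11 members higher in both of WT replicates 1 and 2 than in both of replicates 3 and 4 were Col4a1, Fn1, Lamc1, Thbs1, Vcan, Mmp8, Mmp9, Mmp14, Adamts1, Adamts4 and Timp1, the same 11 that were called in WT livers at 24 h. Across all genes tested, 33.1% lay in this order and 34.6% in the opposite one. The opposite order held for 21 of 42 members, among them 9 of 12 collagens, Pdgfrb, Des and Reln. The classes were not uniform, as the proteases Mmp12 and Adamts2 lay in the opposite order too and 5 of 9 proteases in the first one. In SIRT1intKO livers, replicate 5 was the lowest of 7 for 9 members, each of them called in both genotypes at 24 h (Lamc1, Thbs1, Vcan, Mmp8, Mmp9, Mmp14, Adamts1, Adamts4 and Timp1), and the highest for 4, where 20.1% and 20.8% of all genes had it lowest and highest. With WT replicates 1 and 2 left out, 6 members were called in WT livers at 24 h (Fn1, Vcan, Mmp12, Mmp14, Timp1 and Pdgfrb), 4 of them among the 11, and with replicates 3 and 4 left out 16 were, 13 higher and Col14a1, Lum and Reln lower, with log2 fold changes of -1.65, -1.67 and -1.44. Without WT replicates 2 and 4 at 0 h, 18 were called. The SIRT1intKO count at 24 h was 22 or 23 in these fits.

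**Figure D4:**
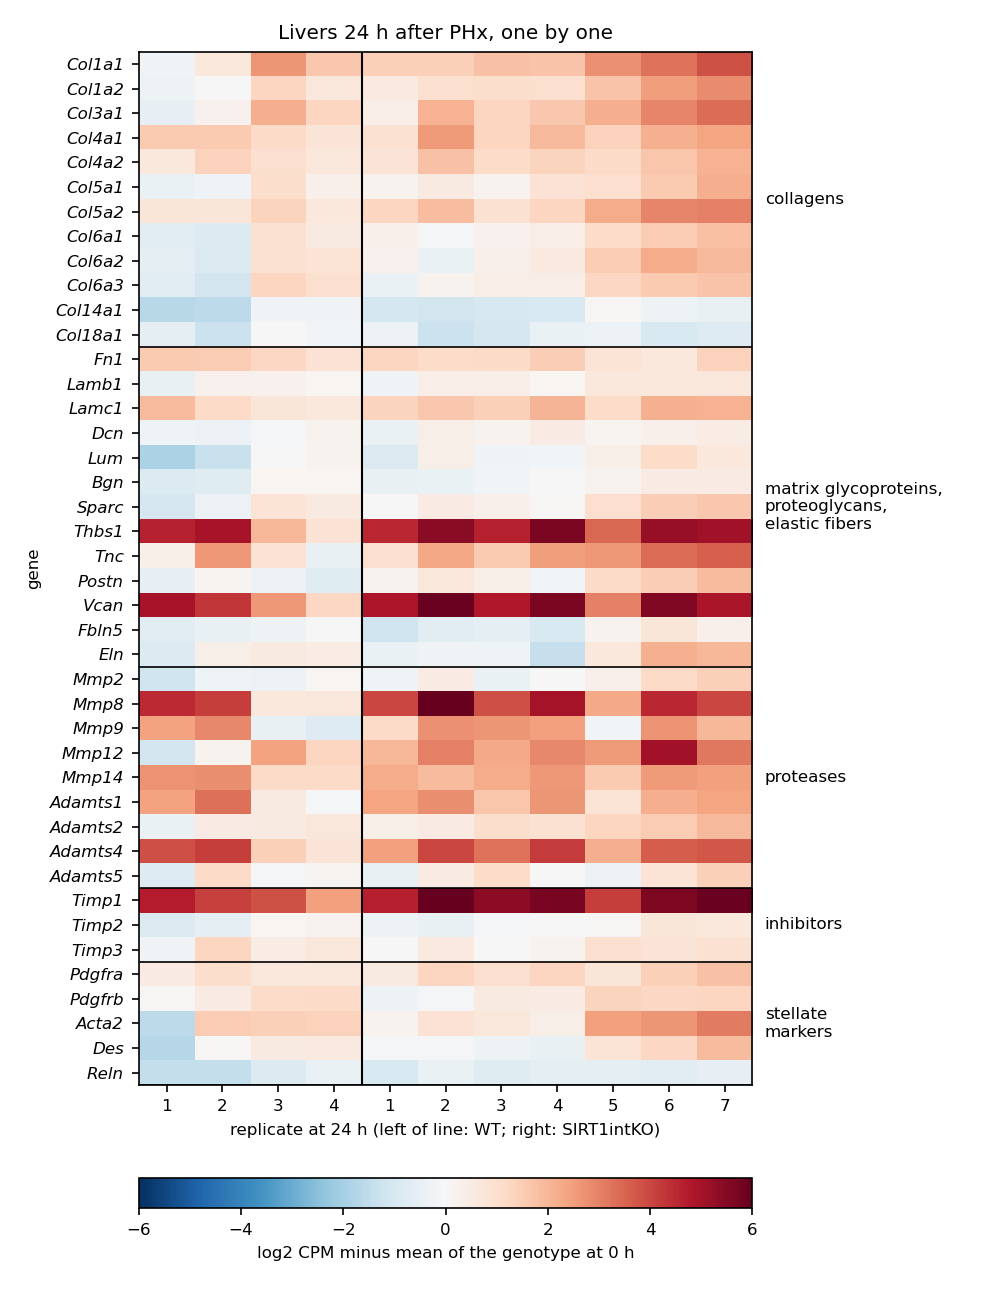
Log2 CPM of each gene in each liver at 24 h after PHx minus its mean at 0 h in the same genotype (color, shown up to 6 in either direction), with WT replicates 1 to 4 left of the line and SIRT1intKO replicates 1 to 7 right of it. WT replicates 1 and 2 are high for Thbs1, Vcan, Mmp8 and Adamts4 and low for most collagens, with WT replicates 3 and 4 below them for the former and above them for the latter.

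The genotypes were then compared at each time. At 0 h and at 6 h no member was called by edgeR, as for 0% and 0% of all genes, and DESeq2 called 0 and 0, with 1 and 5 members at an unadjusted p under 0.05. Of the 42 log2 fold changes between SIRT1intKO and WT livers, 4 and 7 were above 0 at these times, with medians of -0.23 and -0.41, where 7153 and 7646 of all 14980 genes were above 0. Without WT replicates 2 and 4 at 0 h, the 0 h median was 0.13 and 28 of 42 were above 0. At 24 h the median was 0.55, 33 of 42 log2 fold changes were above 0, and 1 member was called higher, where 1.38% of all genes were, and none lower, where 1.3% were. That gene was Mmp12, with 0, 0.171, 1.2 and 0.498 CPM in the WT livers and 0.723, 1.41 and 6.75 CPM as lowest, median and highest of the SIRT1intKO livers. The SIRT1intKO livers lay above all WT livers in 4 of 7, and the log2 fold change was 2.10 (SE 0.64, adjusted p = 0.0465). Leaving out 1 library at a time, the call of Mmp12 was lost in 18 of 34 fits, and its log2 fold change ran from 1.42 to 3.09.

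Class medians of the difference between genotypes at 24 h were 0.67 for collagens, 0.44 for glycoproteins and elastic fiber genes, 0.54 for proteases, 0.21 for inhibitors and 0.33 for markers, against -0.02 over all genes. Col4a2 (0.57 (SE 0.181, adjusted p = 0.0552)), Postn (1.05 (SE 0.336, adjusted p = 0.0559)) and Col4a1 (0.65 (SE 0.234, adjusted p = 0.0859)) came nearest to the threshold without passing it. Col1a1 had 0.95 (SE 0.538, adjusted p = 0.288) and Col3a1 1.07 (SE 0.508, adjusted p = 0.198). Mmp14, Adamts1 and Adamts4 differed by -0.08, -0.01 and 0.13, with SEs of 0.253, 0.417 and 0.516. Which members were called depended on the WT livers. Without WT replicates 1 and 2, 7 were called higher in SIRT1intKO livers, namely Mmp8 (3.84), Mmp9 (3.20), Vcan (3.06), Thbs1 (2.87), Adamts4 (2.37), Adamts1 (1.92) and Postn (1.28). Without replicates 3 and 4, 7 were called higher, namely Mmp12 (4.41), Col3a1 (2.26), Col1a1 (2.24), Lum (1.77), Col6a3 (1.68), Col5a1 (1.35) and Sparc (1.31). No gene was called in both of these fits. The pairs were chosen after the values were seen. Except for Postn, each of these genes was higher in both WT livers left out than in both kept. These calls therefore follow from that choice and do not test the genotype.

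The interaction term asks whether the change from 0 h differed between the genotypes. At 6 h no member was called by edgeR (0% of all genes) or DESeq2, and 0 had an unadjusted p under 0.05. At 24 h no member was called, where 0.00668% of all genes were, 8 had an unadjusted p under 0.05, and DESeq2 called 0. The term was above 0 for 39 of 42 members with a median of 0.65, which was 0.28 without WT replicates 2 and 4 at 0 h, and the smallest adjusted p among them was 0.209. Without WT replicates 1 and 2 at 24 h, 7 were called (Lamc1, Thbs1, Vcan, Mmp8, Mmp9, Mmp14 and Adamts1), and without replicates 3 and 4, 5 were (Col1a1, Col3a1, Lum, Sparc and Mmp12). Each of these genes was higher in both WT livers left out than in both kept, so these calls too follow from that choice. The larger number of members called in SIRT1intKO than in WT livers at 24 h therefore stands beside no called difference in response over all 4 WT livers.

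**Figure D5:**
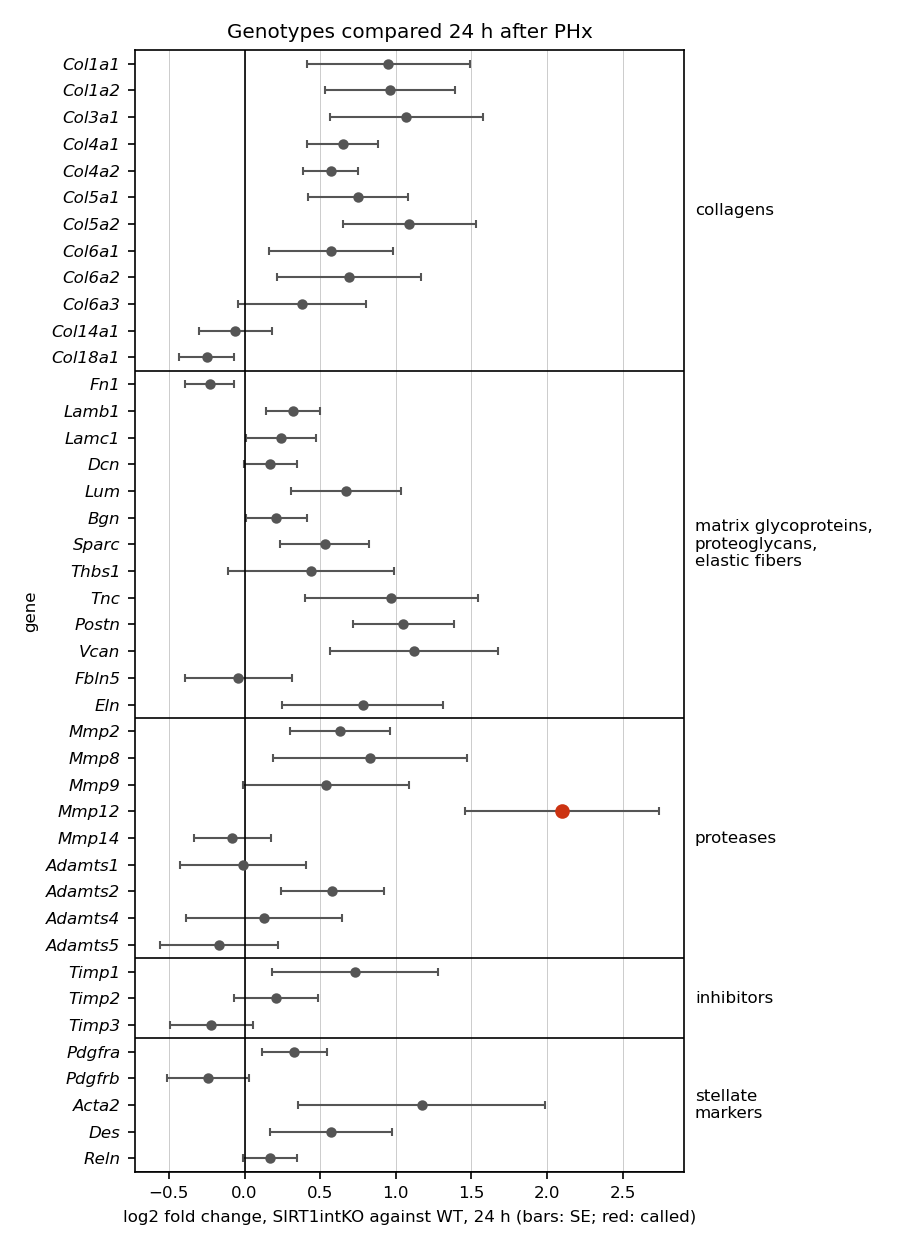
Log2 fold change between 7 SIRT1intKO and 4 WT livers at 24 h after PHx for each of the 42 tested genes (rows, by class), with bars for the SE and a red point where a gene was called. Of the 42 points, 33 lie right of 0 and Mmp12, at 2.10, is the red one.

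Other genes of matrix biology were read from lists that hold none of the 43 members, and values here are log2 fold changes in WT and SIRT1intKO livers in turn. At 6 h, 7.17% and 7.86% of all genes were called higher and 8.4% and 8.7% lower. At 24 h, 8.32% and 11.9% were called higher and 7.4% and 11.1% lower. Between genotypes at 24 h, 1.38% were called higher and 1.3% lower. Some list counts lie near these shares, and no list was tested against them. Of 20 genes for collagen processing and crosslinking, 3 and 2 were called higher and 1 and 1 lower at 6 h, and 4 and 6 higher and 1 and 0 lower at 24 h. Lox, the lysyl oxidase that crosslinks collagen, had 2.41 and 3.49 at 24 h, and Loxl4, a related oxidase, -2.84 and -2.86 at 6 h. Tgm2, the crosslinking transglutaminase, was lower in SIRT1intKO than in WT livers at 24 h with -1.15 (SE 0.343, adjusted p = 0.0422). Its values were 1560, 1095, 283 and 206 CPM in WT replicates 1 to 4. In SIRT1intKO replicates 1 to 7 they were 247, 418, 344, 607, 236, 285 and 340 CPM. All SIRT1intKO livers lay below WT replicates 1 and 2 and above WT replicate 4, so the difference rests on WT replicates 1 and 2. Among 13 tested basement membrane partners of 15, 1 and 2 were called higher and 1 and 1 lower at 6 h, and 3 and 2 higher and none lower at 24 h. Nid1, the linker protein nidogen-1, had 3.51 and 4.13 at 24 h, and Lamb3, a laminin chain of epithelia, 2.01 and 1.79 at 6 h. In WT replicates 1 to 4 at 24 h Nid1 had 180, 169, 17 and 13.5 CPM, so replicates 1 and 2 weighed most in its WT value. Of 17 tested matrix receptors of 20, 3 and 2 were called higher and 0 and 1 lower at 6 h, and 4 and 7 higher and 1 and 0 lower at 24 h. The collagen receptors Itga2 and Ddr1 were among them, with 5.25 and 4.87 for Itga2 at 6 h and 3.49 and 2.48 for Ddr1 at 24 h. Ddr1 had 46.9, 4.51, 3.67 and 4.28 CPM in WT replicates 1 to 4 at 24 h, so replicate 1 weighed most in its WT value. Cd44, the hyaluronan receptor, was higher in SIRT1intKO than in WT livers at 24 h with 1.12 (SE 0.333, adjusted p = 0.0424).

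Of 14 tested fibrogenic ligands and early response genes of 15, 2 and 4 were called higher and none lower at 6 h, and 3 and 6 higher and 1 and 0 lower at 24 h. Ccn2, a matricellular growth factor, and Spp1, which encodes osteopontin, are added here after their values were seen. Ccn2 was called at 6 h in both genotypes (1.74 and 1.45) and at 24 h in SIRT1intKO livers (1.81), and Spp1 at 24 h in both (2.16 and 1.84). Of 6 tested genes of the plasminogen system, 2 and 1 were called higher and 1 and 1 lower at 6 h, and 2 and 2 higher and 1 and 1 lower at 24 h. Plaur, the urokinase receptor, had 3.63 and 3.94 at 24 h, and Plat, the tissue activator, 2.96 and 4.12. WT replicates 1 to 4 at 24 h held 14.2, 19.6, 1.26 and 0.747 CPM of Plaur, the last 2 within the WT range at 0 h (0.36 to 1.38 CPM). No gene of the last 2 lists or of the basement membrane list was called between genotypes at 24 h.

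Stellate cell states were read from lists of their markers, whose counts stand beside the same shares of all genes (7.17% to 11.9% called in each direction against 0 h). Of 14 markers of quiescent stellate cells, none was called higher and 2 and 3 lower at 6 h in WT and SIRT1intKO livers, and 1 and 2 higher and 3 and 5 lower at 24 h, with no call between genotypes. Ngfr, the p75 neurotrophin receptor, had -1.96 and -1.74 at 6 h, and Vipr1, a peptide receptor, -1.23 and -1.71 at 24 h. Lrat, which esterifies retinol for storage and is named after its values were seen, had -1.01 and -1.07 at 24 h. The sum of the 14 ranged from 239 to 317 CPM (WT) and 222 to 301 CPM (SIRT1intKO) at 0 h, and from 168 to 244 and 141 to 239 CPM at 24 h. Of 10 tested markers of activated stellate cells and myofibroblasts, 2 were called higher and 1 lower in WT livers at 6 h, and 0 and 1 in SIRT1intKO livers. At 24 h, 1 was called higher and 3 lower in WT livers, and 4 and 0 in SIRT1intKO livers. S100a6, a calcium-binding protein, had 1.46 and 3.16 at 24 h, and Spon2, a secreted matrix protein, -2.83 and -3.08 at 6 h. Cnn1 had -4.20 in WT livers at 24 h, against a 0 h group in which replicates 2 and 4 held its high values. Lgals1, which encodes galectin-1, was higher in SIRT1intKO than in WT livers at 24 h with 2.29 (SE 0.422, adjusted p = 0.00401). In WT replicates 1 to 4 Lgals1 had 2.03, 3.77, 8.38 and 3.68 CPM. SIRT1intKO replicates 1 to 7 had 12, 63.4, 13, 8.51, 11.7, 22.1 and 23.2 CPM. Replicate 2 also held the highest neutrophil sum (940 CPM) and monocyte and macrophage sum (957 CPM) of that group. Acta2 had 7.85 CPM in replicate 2 and 23.8, 27.1 and 38.1 CPM in replicates 5 to 7. The part of other cell types in the Lgals1 values was not tested.

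Other cell types of the liver were read in the same way, beside the same shares of all genes (7.17% to 11.9% called in each direction against 0 h). Portal fibroblast markers, 8 tested of 9, gave 1 and 1 called lower at 6 h (Entpd2, an ectonucleotidase, with -1.01 and -1.24), and 0 and 3 called higher at 24 h, and summed to 14 to 17.6 CPM in WT and 15.2 to 43.5 CPM in SIRT1intKO livers at 24 h. Vascular smooth muscle markers, 5 tested of 6, gave no call except Mylk, a myosin kinase, with -1.03 in SIRT1intKO livers at 24 h. Mesothelial markers, 5 tested of 6, gave 2 called higher in SIRT1intKO livers at 24 h and no other call against 0 h or between genotypes at 24 h. Of 10 sinusoidal endothelial markers, 1 and 0 were called higher and 1 and 5 lower at 6 h, and 0 and 1 higher and 7 and 6 lower at 24 h, with Dnase1l3, a secreted nuclease, at -2.41 and -2.28. Neutrophil markers, 6 tested of 11, gave no call at 6 h and 3 and 6 called higher at 24 h, and Csf3r, the G-CSF receptor, was higher in SIRT1intKO than in WT livers with 1.75. Of 12 monocyte and macrophage markers, 4 and 4 were called higher and 0 and 3 lower at 6 h, and 5 and 7 higher and 2 and 0 lower at 24 h, with Cd14, the endotoxin co-receptor, at 6.44 and 6.02. Between genotypes at 24 h, 3 of these 12 were called higher in SIRT1intKO livers, among them Lyz2, the macrophage lysozyme, with 1.73. Of 6 Kupffer cell markers, none was called in WT and 1 higher and 3 lower in SIRT1intKO livers at 6 h, and 0 and 1 higher and 4 and 2 lower at 24 h, and Marco, a scavenger receptor, was higher in SIRT1intKO than in WT livers with 2.28. Cholangiocyte markers, 6 tested of 7, gave 2 and 3 called higher at 24 h, with Sox9, a biliary transcription factor, at 2.76 and 1.74. Hepatocyte markers, 8 in all, gave 0 and 1 called higher and 1 and 1 lower at 6 h, and 3 and 2 called lower at 24 h, and summed to 35411 to 46175 CPM in WT and 39886 to 77443 CPM in SIRT1intKO livers at 24 h. The part of these cell types in the matrix values was not tested.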

How the data were processed

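RNA-seq was done on whole liver from 34 mice in 6 groups of genotype and time after PHx. The authors deposited expected counts per gene, which are estimated read counts not scaled for depth or length. Stranded mRNA libraries were sequenced as paired ends, and the submitters' processing notes name STAR, Salmon and GRCm39. Of 35 value columns, 1 matched no label and was not used. Of the expected counts, 4.97% were not whole and were rounded. The letter x was missing from the table's symbols, and 1255 symbols were restored through the gene identifiers with GENCODE vM21. Library totals had a median of 16807340, and genes under 1 CPM rest on few reads.

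Counts were analysed in R 4.3.3 with edgeR 4.0.16, using filterByExpr by group, TMM scaling and a quasi-likelihood fit with 1 mean per group over all libraries. Comparisons were times within a genotype, genotypes within a time, and interactions. Log2 CPM values carry a prior count of 2. The script was tested on simulated data. P-values measure the spread between the labelled biological replicates, and no pair of libraries in a group agreed within sampling noise. Alternatives were DESeq2 1.42.0, other scalings and filters, only the groups compared, glmTreat, adjusted p with no fold threshold, a replicate block, and leaving out libraries. The members and lists were chosen with earlier results of these data known. Values by library are given for members called between genotypes at 24 h, for the called member of each class with the largest change in each comparison with 0 h, and for Col1a1 and the stellate markers, and other members by fold change and counts. From other lists, the called gene with the largest change in a comparison is named. Of the genes that this rule names, 2 are not reported here.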

Additional observations from a re-analysis of the deposited data

Results flagged for a closer look

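In 10 of 252 combinations of a member and a group, the highest or lowest liver lay far from the other livers of its group by Dixon's test, where chance alone flags about 1 in 20. At 0 h, Dcn was high in WT replicate 4 at 116 CPM and Mmp12 was low in WT replicate 3 at 0.0601 CPM. At 6 h, Eln was high in SIRT1intKO replicate 1 at 3.27 CPM and Des was low in SIRT1intKO replicate 5 at 2.99 CPM. In WT livers at 24 h, Col5a2 was high in replicate 3 at 5.71 CPM, and Eln and Acta2 were low in replicate 1 at 1.97 and 1.05 CPM. In SIRT1intKO livers at 24 h, Dcn was low in replicate 1 at 62.4 CPM, Vcan was low in replicate 5 at 1.55 CPM and Mmp12 was high in replicate 6 at 6.75 CPM. No member differed between genotypes in its change from 0 h by the interaction test, and none moved in opposite directions in every liver of the 2 genotypes.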

How the results depend on the processing

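Of 79 calls of single members, 53 held in all 34 fits that left out 1 library and 29 held under every setting, and counts not named here stayed within 1.5 times their main value. With glmTreat against a log2 fold change of 1, the calls against 0 h were 3 (WT) and 3 (SIRT1intKO) at 6 h and 7 in WT livers at 24 h, and those from 6 to 24 h were 0 and 4. With at least 10 counts in every library, which tests fewer genes, they were 6 in SIRT1intKO livers at 6 h, 5 and 14 at 24 h, and 1 and 8 from 6 to 24 h. With only the groups compared, 1 was called from 6 to 24 h in WT livers. Between genotypes at 24 h, DESeq2 called 2 (Mmp12 and Postn), and upper-quartile scaling, every gene with at least 1 count, at least 10 counts, only the groups compared, glmTreat and the replicate block each called 0. The cause was not tested.

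Chosen after seeing the data, fits without WT replicates 1 and 2 at 24 h gave 6 calls against 0 h and 1 against 6 h in WT livers, 7 between genotypes and 7 for the interaction at 24 h. There 4 WT values turned negative, Mmp9 with -0.81 against 0 h and -0.68 against 6 h, and Thbs1 (-0.14) and Adamts4 (-0.02) against 6 h. Without replicates 3 and 4 the counts were 15 in WT livers from 6 to 24 h, 7 between genotypes and 5 for the interaction, and without WT replicates 2 and 4 at 0 h 18 were called in WT livers at 24 h.

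Leaving out 1 library at a time, counts ran from 8 to 13 (WT) and 8 to 11 (SIRT1intKO) at 6 h, 10 to 14 and 19 to 26 at 24 h, 2 to 9 and 10 to 18 from 6 to 24 h, and 0 to 2 between genotypes at 24 h. They were 0 to 0 between genotypes at 0 and 6 h and for both interactions. With the replicate block, 8 members were called in SIRT1intKO livers from 6 to 24 h. Same-numbered livers did not deviate together, with a median correlation of -0.00364 over 76 pairs, and 2 of 34 livers correlated best with their own number, so the numbers name livers only. Values under 1 CPM rest on few reads, and 4 WT livers at 24 h in 2 unlike pairs limit the comparison of genotypes.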
